A study of Rattus norvegicus with 6 samples.

Results

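The genes described here encode the rat major histocompatibility complex (MHC), which is named RT1, and the machinery of antigen presentation that serves it. The probe sets were chosen by gene symbol in the platform annotation. They were every probe set listing a symbol that begins with RT1-, and those of B2m, Tap1, Tap2, Tapbp, Psmb8, Psmb9, Psmb10, Cd74, Ciita, Ctss and Nlrc5. This gave 51 probe sets for 36 genes, of 31042 probe sets that are not controls, and 37 of the 51 carry RT1 symbols. Of the 51, 41 had a mean log2 value above the filter of 2.82 and were tested, 22 of class I, 10 of class II, 7 of peptide processing and loading and 2 of transactivators. The other 10 lay between 1.28 and 2.55 on average with a range over the arrays of at most 0.07, at the floor of the deposited values. These 10 were 6 class I probe sets (of RT1-A1, RT1-A2, RT1-A3, RT1-CE5, RT1-M6-1 or RT1-T24 genes), 2 of RT1-Ba, 1 of Tap1 and 1 of Ciita.

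The livers came from male Sprague Dawley rats dosed with tienilic acid (TA), a diuretic that also lowers urate and was taken off the market for liver injury, and their RNA was hybridised to 6 Affymetrix arrays. TA was given by gavage at 100 mg/kg, dissolved with sodium bicarbonate, and the controls received that salt alone, called the vehicle here. Rats of the first time were killed 6 h after 1 dose, and those of the second at 24 h, having been dosed at the start and again at 16 h. For each time there were 2 TA arrays, 1 per animal, and a single vehicle array on which the RNA of 2 control rats was pooled. The series title names acute gene induction by TA and a possible role for danger, and antigen presentation is a part of the response to danger signals. Sprague Dawley is an outbred stock, and the labels do not give the RT1 type of any animal.

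MHC class I molecules, each paired with beta-2-microglobulin, display peptides from inside the cell to CD8 T cells and are made by nearly all cells, hepatocytes included. Class II molecules display peptides from the endosome to CD4 T cells and are made mainly by dendritic cells, macrophages and B cells, so that in liver they are largely products of cells other than hepatocytes. Interferon gamma raises both classes, through Nlrc5 for class I and Ciita for class II. In rats RT1-A encodes the classical class I molecules, RT1-B and RT1-D the class II molecules, and the RT1-C/E/M region a large set of further class I genes. These genes are polymorphic and alike in sequence, so a probe set can read some alleles or copies and not others. Of the 41 probe sets tested, 13 have names ending in x_at, s_at or a_at, the platform's mark for probes shared between transcripts, and 6 of the 51 list several genes.

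Array medians lay between 3.27 and 3.31 on the log2 scale, and the arrays correlated pairwise at 0.991 to 0.997 over all probe sets. The hepatocyte markers had a summed level of 17.79 to 17.90 (log2 of the sum of 4 genes). By the hybridisation times in the array settings, with arrays of close times taken as 1 run, the 6 h vehicle pool and animal 1 of 6 h shared run 1. Run 2 held the remaining 4. The within-run value of the 6 h comparison is therefore that of animal 1, animal and run cannot be told apart between the 2 animals of 6 h, and the 24 h arrays were all in run 2. Every error below comes from how far the 2 TA animals of each time lay apart, since the vehicle pools have no replicate. It is pooled over both times (limma, 2 residual degrees of freedom) and drawn towards the spread of all probe sets. A probe set thus has the same error for its TA difference at 6 h and at 24 h, which is not the spread of that time's animals alone. Values are log2 and, where 3 are given for a time, stand in the order vehicle pool, animal 1, animal 2. Levels of different genes are not compared.

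At 6 h, class II genes and several partners were high in 1 of the 2 TA animals and near the vehicle pool in the other. Over the 10 class II probe sets the median log2 difference from the vehicle pool was 0.97 in animal 1 and -0.02 in animal 2, against -0.04 and 0.00 over all 18625 probe sets tested. Over the 7 probe sets of processing and loading it was 0.47 and 0.01, and over the 22 of class I 0.14 and -0.10. The 2 animals were at least 2-fold apart for 12 of the 41 probe sets, 7 of class I, 4 of class II and Tap2, against 2.24% of all probe sets. Animal 1 was at least 2-fold above animal 2 for 11 of the 41 probe sets and at least 2-fold below it for 1, where 1.13% and 1.11% of all probe sets were. Animal 1 was the higher of the animals in 37 of the 41, against 43.2%, and at least 2-fold above its vehicle pool in 9, against 1.05%, while animal 2 was so in 1, against 0.677%. Animal 1 had the highest value of the 6 arrays in 26 of the 41, against 16.8% of all probe sets, and stood at least 2-fold above each other array in 8, against 0.328%. These 8 were Cd74, RT1-Da, a probe set each of RT1-Ba and RT1-Db1, 2 of RT1-CE5, RT1-M3-1 and Tap2. Over all 6 arrays, 22 of the 41 ranged at least 2-fold, against 15.5% of all probe sets, 11 of class I, 8 of class II and 3 of processing and loading.

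No member passed limma's test for TA against vehicle at 6 h (0 of 41 with Benjamini-Hochberg adjusted p under 0.05, background 0.0%), and 0 of 41 had an unadjusted p under 0.05, against 5.84% of all probe sets. The smallest adjusted p among them was 1.00. In both animals 17 of the 41 were above the vehicle pool and 6 below it, against 21.0% and 36.3% of all probe sets. Against the 24 h vehicle pool, a count added after the values were seen, 27 were above and 5 below, against 30.1% and 32.1%.

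**Figure D1:**
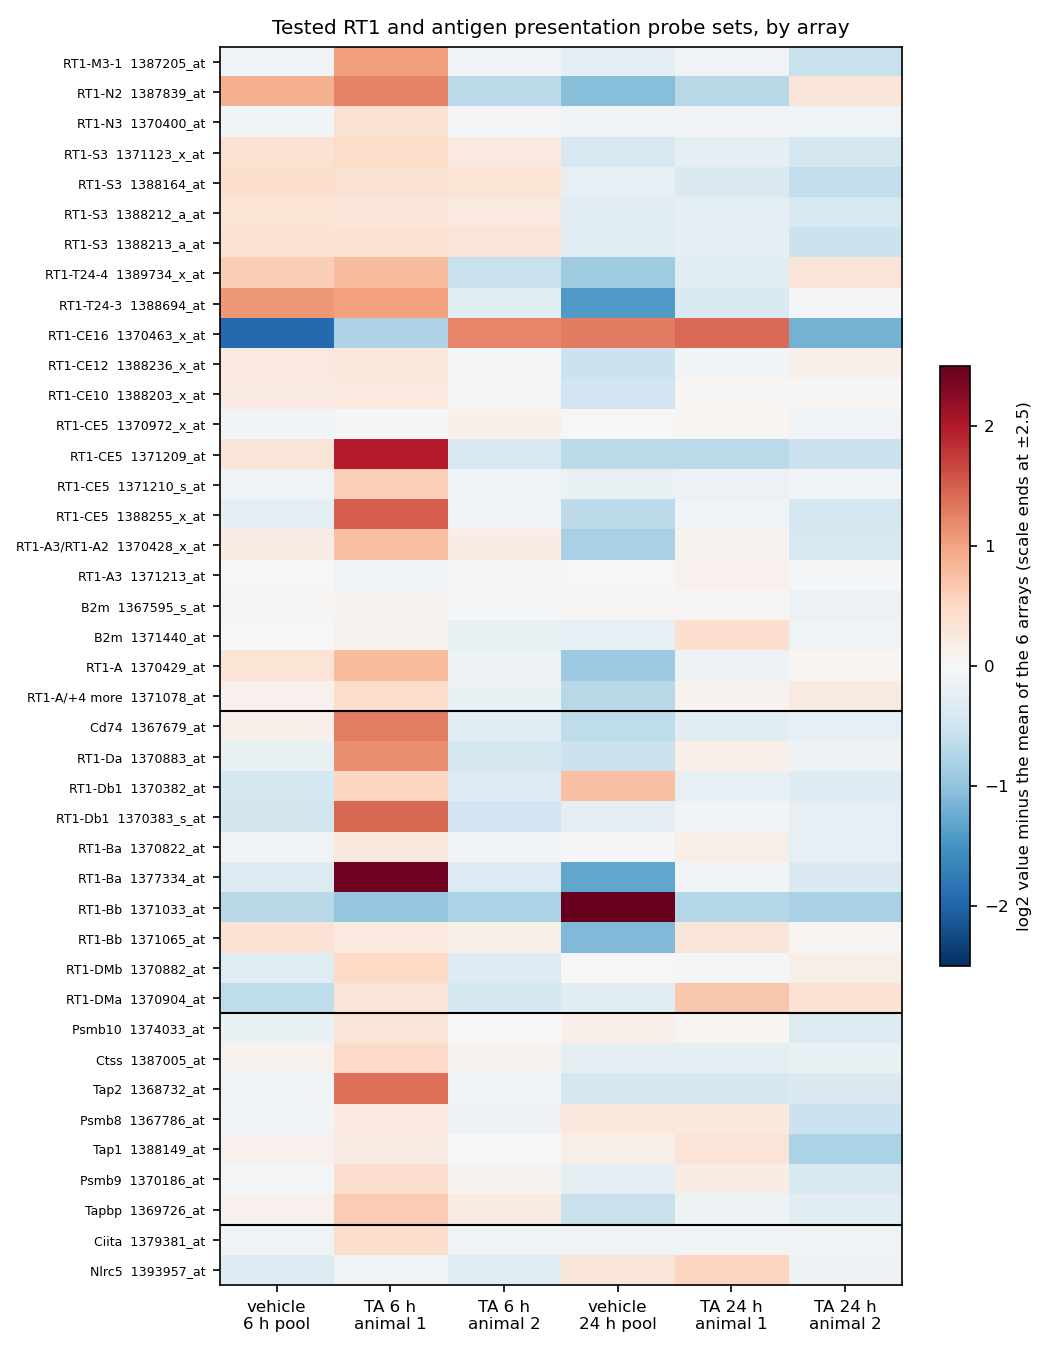
Log2 values of the 41 tested probe sets (rows, with symbol and probe set name) on the 6 arrays (columns), each minus its mean over the arrays. Black lines separate class I, class II, processing and loading, and transactivators. The reddest column in the class II block is animal 1 of 6 h, and RT1-Ba and RT1-Bb hold the strongest colours, at 12.91 in animal 1 of 6 h and 7.22 in the 24 h vehicle pool.

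The promoters of 4 class II genes are shown because these genes are the ones whose values follow, and 3 of them were highest in the same animal. They come from RefSeq (GRCr8) and run from 250 bases before to 50 after the annotated start, on the strand of the gene. Capitals mark matches on either strand to the X box, searched by its core ACNGATG, and to the Y box, searched as CTGATTGG, which are known as the sites of the RFX and NF-Y factors that Ciita joins.
RT1-Da (chr20:4515165-4515464, plus strand): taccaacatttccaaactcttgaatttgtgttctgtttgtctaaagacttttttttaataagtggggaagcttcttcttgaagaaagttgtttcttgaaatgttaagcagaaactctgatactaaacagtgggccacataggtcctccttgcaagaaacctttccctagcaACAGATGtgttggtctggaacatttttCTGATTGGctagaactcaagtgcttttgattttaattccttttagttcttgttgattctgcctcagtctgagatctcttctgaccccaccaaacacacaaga
RT1-Db1 (chr20:4560113-4560412, minus strand): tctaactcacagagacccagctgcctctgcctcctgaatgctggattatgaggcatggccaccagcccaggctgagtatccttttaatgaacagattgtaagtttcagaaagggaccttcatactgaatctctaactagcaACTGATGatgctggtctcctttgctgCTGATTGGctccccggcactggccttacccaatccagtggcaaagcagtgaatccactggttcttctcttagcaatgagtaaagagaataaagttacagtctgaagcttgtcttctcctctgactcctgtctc
RT1-Ba (chr20:4576807-4577106, plus strand): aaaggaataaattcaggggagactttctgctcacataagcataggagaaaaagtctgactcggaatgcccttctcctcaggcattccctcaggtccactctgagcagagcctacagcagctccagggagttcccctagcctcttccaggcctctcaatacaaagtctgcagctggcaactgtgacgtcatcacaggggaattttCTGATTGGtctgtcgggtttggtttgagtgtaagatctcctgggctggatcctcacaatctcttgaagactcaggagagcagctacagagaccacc
RT1-Bb (chr20:4604069-4604368, minus strand): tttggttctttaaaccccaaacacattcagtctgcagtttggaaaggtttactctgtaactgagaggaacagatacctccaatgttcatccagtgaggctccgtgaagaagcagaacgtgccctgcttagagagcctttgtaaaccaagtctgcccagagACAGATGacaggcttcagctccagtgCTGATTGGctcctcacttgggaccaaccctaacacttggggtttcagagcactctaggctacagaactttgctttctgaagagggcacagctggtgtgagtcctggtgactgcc

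The Y box letters were in 4 of the 6 class II promoters held in the table (RT1-Da, RT1-Db1, RT1-Ba and RT1-Bb) and in 3.50% of all 33469 promoters of the same length. The X box letters were in 4 of the 6, RT1-Da, RT1-Db1, RT1-Bb and RT1-DMa, and in 10.2% of all promoters, as the core is short. RT1-Da, RT1-Db1 and RT1-Bb held both, with the X box match ahead of the Y box match. The letters were not particular to class II. Of 17 class I promoters, 8 held the Y box letters and 5 the X box letters. Of 7 promoters of processing and loading genes, that of Psmb9 held the Y box letters and that of Ctss the X box letters. Counted from the start site, the X box match of RT1-Da began at base -79 and its Y box match at -52. In RT1-Db1 they began at -109 and -83, in RT1-Bb at -90 and -64, and the Y box match of RT1-Ba began at -46. A match is a description of letters and not of binding. Other forms of the X box were not searched, so a promoter without a match to the core, as that of RT1-Ba, may still hold one.

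RT1-Da, the alpha chain of the RT1-D molecule, was at 11.08 in the 6 h vehicle pool, 12.44 in animal 1 and 10.84 in animal 2, and at 10.73, 11.41 and 11.15 in the same order at 24 h. RT1-Db1, its beta chain partner, was at 8.71, 10.62 and 8.70 at 6 h and at 8.95, 9.10 and 8.97 at 24 h (probe set 1370383_s_at). RT1-Ba, the alpha chain of RT1-B, was at 10.13, 12.91 and 10.13 at 6 h and at 9.18, 10.40 and 10.11 at 24 h (1377334_at). For all 3 genes animal 1 of 6 h stood alone at the top, and animal 2 of 6 h was at or below its vehicle pool. The differences of TA from vehicle at 6 h were 0.56 ± 0.74, 0.95 ± 0.88 and 1.39 ± 1.28 (SE, n = 2 treated animals), each about as large as its error. Without animal 1 they were -0.24, -0.0093 and -0.0041, so that animal 1 alone decides these values, and its own differences from the vehicle pool of its run were 1.36, 1.91 and 2.78.

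The second tested probe sets of RT1-Ba and RT1-Db1 were also highest in animal 1 among the 6 h arrays, but by less than the first. That of RT1-Ba (1370822_at) was at 8.43, 8.78 and 8.46 at 6 h and at 8.48, 8.68 and 8.32 at 24 h. That of RT1-Db1 (1370382_at) was at 3.51, 4.50 and 3.64 at 6 h and at 4.71, 3.76 and 3.63 at 24 h, so that the 24 h vehicle pool and animal 1 of 6 h were both high. On the first probe set of RT1-Db1 that vehicle pool was at 8.95, close to the 24 h animals.

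The class II partners were also highest in animal 1 among the 6 h arrays, though RT1-DMa was above its pool in animal 2 as well. Cd74, the invariant chain that guides class II molecules to the endosome, was at 10.84 in the 6 h vehicle pool, 12.00 in animal 1 and 10.45 in animal 2, and at 10.08, 10.43 and 10.52 at 24 h. RT1-DMa and RT1-DMb form the exchanger that swaps the invariant chain peptide for antigen. RT1-DMa was at 5.31, 6.26 and 5.51 at 6 h and at 5.66, 6.61 and 6.30 at 24 h. RT1-DMb was at 8.05, 8.83 and 8.02 at 6 h and at 8.36, 8.32 and 8.48 at 24 h. Animal 1 was highest at 6 h in each of these 3, and RT1-DMa alone was higher still in the 24 h animals. Differences of TA from vehicle at 6 h were 0.39 ± 0.71 for Cd74, 0.58 ± 0.38 for RT1-DMa and 0.38 ± 0.39 for RT1-DMb (SE, n = 2 treated animals).

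Ciita, the master transactivator of class II genes, was measured near the floor, at 3.11, 3.67 and 3.14 at 6 h and at 3.14, 3.14 and 3.13 at 24 h. Animal 1 of 6 h was again the highest array. Its other probe set lay below the filter. Ctss, cathepsin S, which trims the invariant chain, was at 10.78, 11.16 and 10.78 at 6 h and at 10.43, 10.45 and 10.50 at 24 h.

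**Figure D2:**
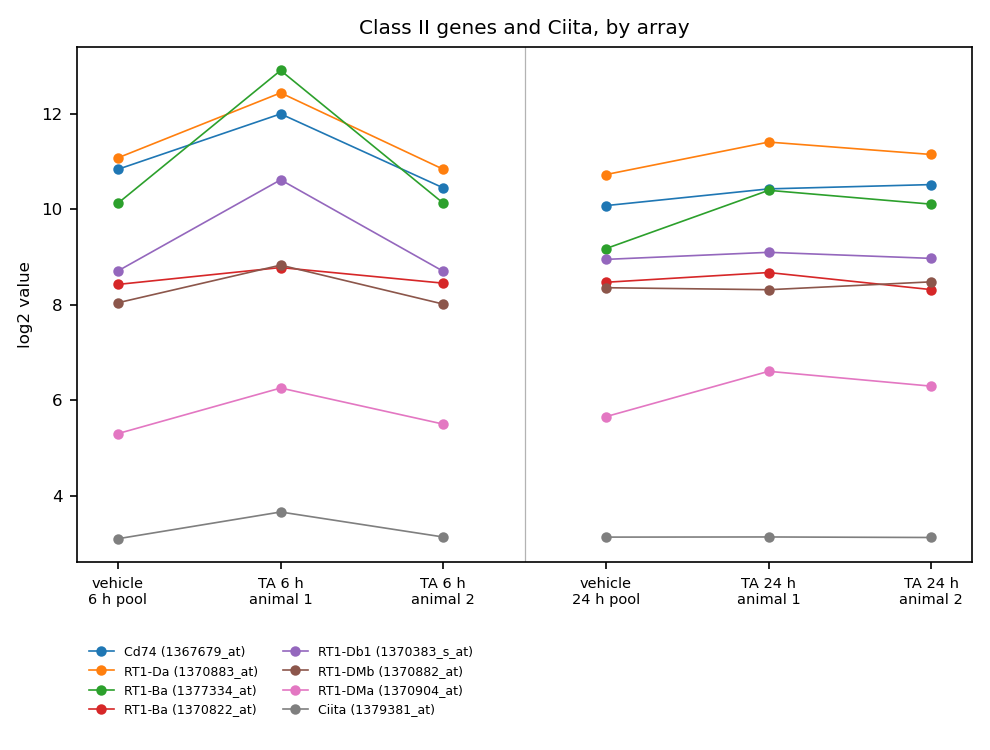
Log2 values of 7 class II probe sets and of Ciita (y axis) on the 6 arrays (x axis), 1 point per array. Lines join the arrays of 1 time and mark no order. In the 8 drawn animal 1 is the highest of the 6 h arrays. Not drawn are both RT1-Bb probe sets, which were below the 6 h vehicle pool in both animals, and the dimmer one of RT1-Db1. At 24 h RT1-Db1 lies at 8.95 to 9.10, while RT1-DMa spans 5.66 to 6.61.

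Markers of several cell types were highest in the same animal more often than the 16.8% of all probe sets that were. Of the 9 measured markers of Kupffer cells and macrophages, 9 were higher in animal 1 of 6 h than in animal 2 and 9 had their highest value there, and their summed level was 13.36 in animal 1, 13.05 in animal 2, 13.04 in their vehicle pool and 12.70 to 13.04 at 24 h (log2). Of the 4 leucocyte markers Ptprc, Coro1a, Laptm5 and Cd53, 4 were highest in animal 1, with a summed level of 10.15 against 9.85 and 9.73, and 9.48 to 9.73 at 24 h. Of the other genes of class II processing (Ctsb, Ctsd, Ctsl, Lgmn, Ifi30 and Cst3), 6 of 6 were highest in animal 1. Of the hepatocyte markers 3 of 4 were highest there and 4 of 4 above animal 2, by a median of 0.07. Of the sinusoidal endothelial markers 3 of 5 were highest there, Stab1, Stab2 and Pecam1, and 4 of 5 above animal 2, while Lyve1 had 12.08 in the 6 h vehicle pool, 11.51 in animal 1 and 11.67 in animal 2.

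Of 9 dendritic cell markers, 1 was measured, Clec9a, at 4.66, 5.26 and 4.46 at 6 h and at 3.82, 3.98 and 3.79 at 24 h. Itgax, Flt3, Batf3 and Fscn1 lay below the filter, and the remaining 4 had no probe set annotated to them alone. Of 7 B cell markers, 2 were measured, with a summed level of 6.88 in animal 1, 7.33 in animal 2 and 6.86 in the 6 h vehicle pool, and Ms4a1 and Cd79b lay below the filter. T cell and NK cell markers had 3 measured genes each, at summed levels of 5.05 to 5.28 and 5.25 to 5.38 over all arrays, with Cd3d, Cd8a, Cd8b, Cd4 and Cd2, and Klrd1, Ncr1 and Nkg7, below the filter. The 2 measured neutrophil markers, S100a8 and S100a9, were at a summed level of 4.85, 4.95 and 5.56 at 6 h and 5.82, 4.87 and 5.33 at 24 h, and 5 sinusoidal endothelial markers at 12.77, 12.46 and 12.48, and 12.55, 12.13 and 12.65. Animal 1 of 6 h also had the largest difference between 3′ and 5′ GAPDH probe sets, a measure of RNA integrity, at 2.26 against 1.82 to 2.04 elsewhere. The same measure for actin did not single it out, at 4.31 within a range of 4.17 to 4.36. The part of these in the class II values was not tested. In whole liver RNA, more cells of a type and more RNA per cell cannot be told apart.

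**Figure D3:**
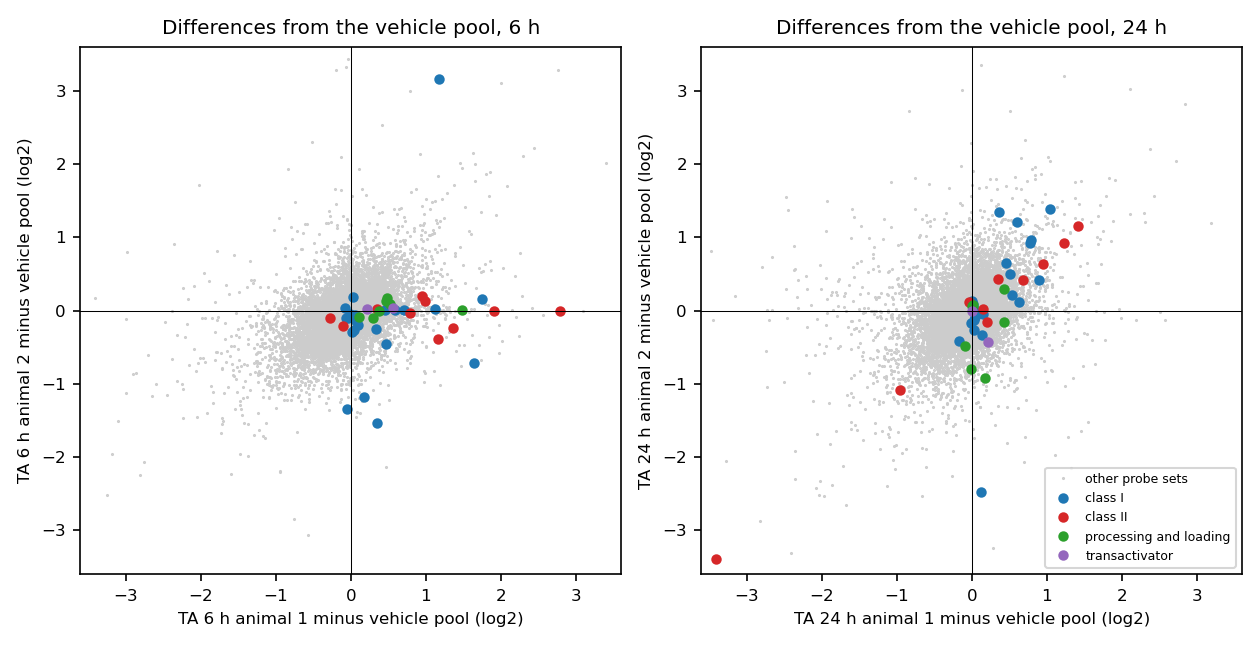
Log2 difference from the vehicle pool of the same time in animal 1 (x axis) and animal 2 (y axis), for 6 h (left) and 24 h (right), with tested members in colour by role and other probe sets in grey. Axes end at 3.6, beyond which 19 other probe sets at 6 h and 18 at 24 h are not drawn, and 1 RT1-Bb probe set is drawn at the edge of the right panel. At 6 h the class II points spread along the x axis up to 2.78 with y values near 0, and at 24 h 6 of the 10 lie in the upper right.

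At 24 h, class I and class II probe sets of both TA animals mostly lay above a vehicle pool that was often the lowest of the 6 arrays. Of the 41 probe sets, 21 were above that pool in both animals and 6 below it, against 24.6% and 36.8% of all probe sets. The 6 include the RT1-Bb probe set 1371033_at, which passed the filter only through that pool. By role, 13 of 22 of class I, 6 of 10 of class II, 2 of 7 of processing and loading and 0 of 2 transactivators were above it in both. The 24 h vehicle pool was the lowest array for 19 of the 41, against 10.7% of all probe sets. Against the 6 h vehicle pool, 8 were above in both 24 h animals and 21 below, against 24.4% and 50.7%, so the direction of the count depends on the pool. Animal 1 was the higher of the 24 h animals in 29 of the 41, against 59.1%, and the animals were at least 2-fold apart in 2, RT1-CE16 and Tap1, against 2.89%.

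No member passed limma's test at 24 h (0 of 41, background 0.00537%), and 5 of 41 had an unadjusted p under 0.05, against 5.28% of all probe sets. Of these 5, 1 RT1-Bb probe set, 1371033_at, passed the filter only through the 24 h vehicle pool, so its p carries no weight. At least 2-fold above the pool in both animals were 2 members, of RT1-Bb (1371065_at) and RT1-T24-3, against 0.236% of all probe sets. At least 2-fold below it was 1, the RT1-Bb probe set 1371033_at, against 0.344%. As 1371033_at passed the filter only through that pool, its direction was fixed by its entry and this count says nothing on the members. At 6 h 0 were at least 2-fold below in both, against 0.295%. The difference of the TA effect between the times was called for 0 of 41 (background 0.00537%). Over all class I probe sets the median difference of TA from vehicle at 24 h was 0.06, over class II 0.24 and over processing and loading 0.03, against -0.01 over all probe sets tested. Against the 6 h vehicle pool these medians were -0.23, 0.15 and -0.30. The class II median of 0.24 counts 1371033_at, and was 0.47 with the 60th percentile filter, which leaves out this and other dim probe sets.

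RT1-Bb, the beta chain of RT1-B, had the largest differences among the members at 24 h, in opposite directions on its 2 probe sets. On 1371065_at it was at 8.13 in the 24 h vehicle pool and at 9.56 and 9.30 in the TA animals, with 9.60, 9.50 and 9.38 at 6 h. On 1371033_at the 24 h vehicle pool had 7.22, whereas the remaining 5 arrays had 2.27 to 2.55. The 24 h vehicle pool thus stood apart from all other arrays on both probe sets, low on the first and high on the second. On 1371065_at the difference of TA from vehicle was 1.29 ± 0.16 (limma, adjusted p = 0.90). The other probe set passed the filter of 2.82 only through the 24 h vehicle pool, as the 5 low arrays lay below it, so its difference of -4.74 is a description and no test of it is given. As the probe sets point opposite ways, no direction is given for RT1-Bb as a whole.

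**Figure D4:**
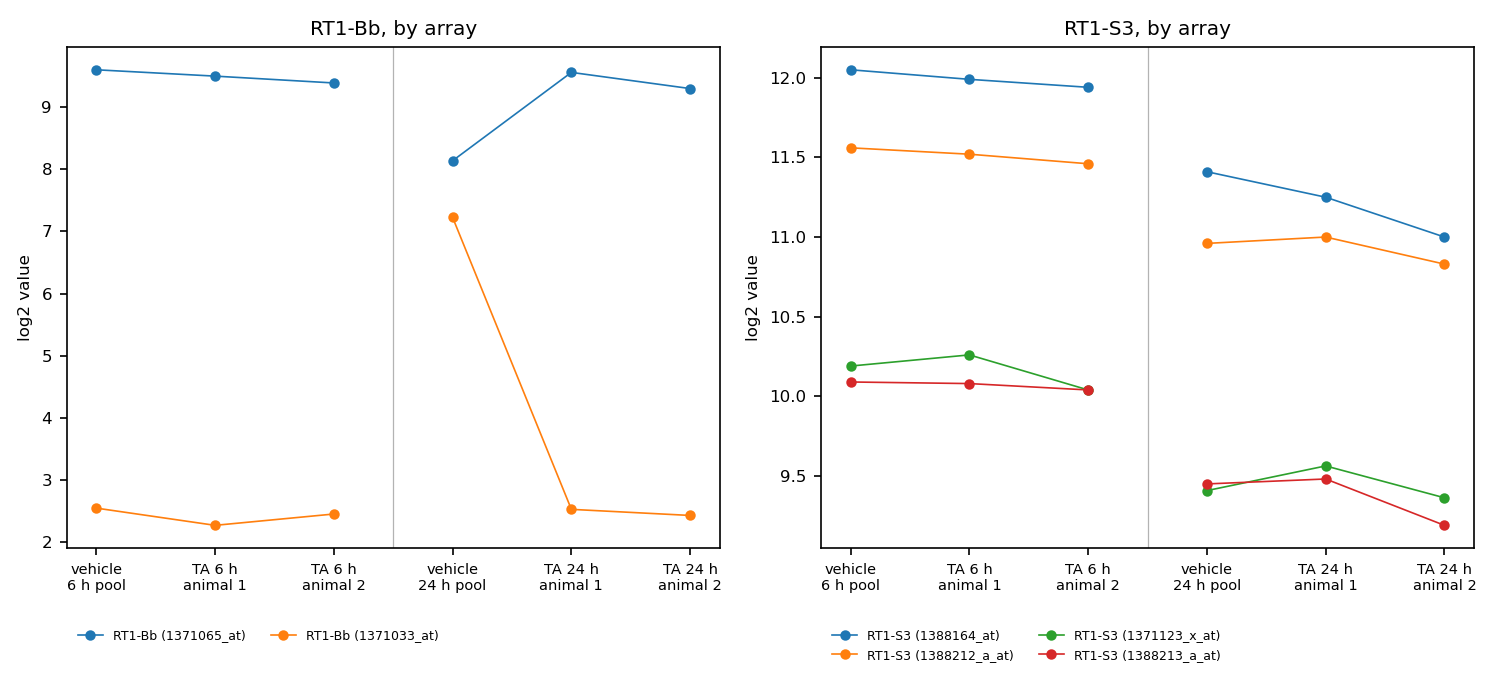
Log2 values (y axis) of the 2 tested probe sets of RT1-Bb (left) and the 4 of RT1-S3 (right) on the 6 arrays (x axis), 1 point per array, with lines joining the arrays of 1 time. The 24 h vehicle pool is at 8.13 and 7.22 for RT1-Bb, apart from the other arrays on both, and the RT1-S3 points of 6 h all lie above those of 24 h.

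Next are the promoters of a classical RT1-A gene, of RT1-CE16 and of Tap2, shown because their values follow and each holds the letters of a motif that NF-kB or interferon factors are known to bind. Capitals mark matches to enhancer A, searched by its core GGGATTCCC, which NF-kB binds, to the Y box, here on the opposite strand and so printed as CCAATCAG, to the interferon response element ISRE, searched as TTCNNTTTC, and to the X box core, all on both strands.
RT1-A2 (chr20:4872621-4872920, plus strand): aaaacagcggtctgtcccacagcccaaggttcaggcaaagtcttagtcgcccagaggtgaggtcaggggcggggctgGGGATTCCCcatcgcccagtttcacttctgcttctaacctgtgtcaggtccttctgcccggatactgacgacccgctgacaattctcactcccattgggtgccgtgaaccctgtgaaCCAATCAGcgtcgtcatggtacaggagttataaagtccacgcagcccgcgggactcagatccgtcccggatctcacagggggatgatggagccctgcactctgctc
RT1-CE16 (chr20:3265394-3265693, minus strand): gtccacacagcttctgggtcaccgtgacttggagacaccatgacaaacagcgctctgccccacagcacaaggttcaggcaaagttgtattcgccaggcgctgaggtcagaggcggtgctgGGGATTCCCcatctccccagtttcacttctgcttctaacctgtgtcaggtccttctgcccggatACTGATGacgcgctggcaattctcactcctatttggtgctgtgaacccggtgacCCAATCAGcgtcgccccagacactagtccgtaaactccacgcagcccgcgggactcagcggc
Tap2 (chr20:4652247-4652546, minus strand): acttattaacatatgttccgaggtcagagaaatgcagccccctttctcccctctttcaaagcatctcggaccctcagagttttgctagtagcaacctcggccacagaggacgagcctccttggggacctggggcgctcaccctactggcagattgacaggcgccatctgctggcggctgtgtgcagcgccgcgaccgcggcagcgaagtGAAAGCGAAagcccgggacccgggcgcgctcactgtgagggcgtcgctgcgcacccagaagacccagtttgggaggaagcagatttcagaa

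Both class I promoters shown hold the enhancer A and Y box letters, that of RT1-CE16 the X box core too, and that of Tap2 the ISRE letters. The enhancer A letters were in 7 of the 17 class I promoters held, those of RT1-A1, RT1-A2, RT1-A3, RT1-CE10, RT1-CE11, RT1-CE13 and RT1-CE16, and in 0.365% of all promoters. The ISRE letters, in the form searched, were in 3 of these 17, B2m, RT1-N3 and RT1-S3. Other forms of the element were not searched, so a promoter without a match may still hold one. They were in 6 of the 7 promoters of processing and loading genes (Ctss, Psmb10, Psmb8, Tap1, Tap2 and Tapbp) and in 9.71% of all promoters. In Tap2 the match lies on the opposite strand and begins at base -41.

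Of the classical class I probe sets, those of RT1-A and of RT1-A3 with RT1-A2 were lowest in the 24 h vehicle pool and highest in animal 1 of 6 h, and a dim one of RT1-A3 alone was not. RT1-A (1370429_at) was at 10.90 in the 6 h vehicle pool, 11.36 in animal 1 and 10.44 in animal 2, and at 9.65, 10.44 and 10.61 at 24 h. The probe set listed for RT1-A3 and RT1-A2 was at 13.11, 13.69 and 13.12 at 6 h and at 12.12, 13.01 and 12.53 at 24 h. At 24 h both TA animals lay above the pool on both, by 0.88 ± 0.44 and 0.65 ± 0.35 (SE, n = 2 treated animals), but they lay below the 6 h vehicle pool. At 6 h RT1-A had a difference of 0.00 ± 0.44, with animal 1 above and animal 2 below the pool. A probe set listed for RT1-A and 4 RT1-CE genes had 0.85 ± 0.29 at 24 h, RT1-CE12 0.55 ± 0.19 and RT1-CE10 0.50 ± 0.17. These 3 were among the 5 with an unadjusted p under 0.05 and lay just under it, at 0.0496, 0.04997 and 0.0437 (limma, adjusted p = 0.94 each). The count of 5 was 2 with arrays centred, 3 with quantile normalization, 6 with both pools as 1 control group and 7 with the replicate block. The first of the 3 lists several genes and the other 2 are x_at probe sets, so they may share probes. Each had its lowest value in the 24 h vehicle pool, at 5.80, 12.40 and 5.71.

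Beta-2-microglobulin, the light chain shared by class I molecules, was nearly level on its brighter probe set. B2m was at 14.53, 14.58 and 14.46 at 6 h and at 14.53, 14.52 and 14.35 at 24 h. Its differences were -0.00 ± 0.13 at 6 h and -0.09 ± 0.13 at 24 h (SE, n = 2 treated animals). Its second probe set ranged from 11.86 in the 24 h vehicle pool to 12.49 in animal 1 of 24 h.

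A group of further class I genes split the arrays across treatment and time. RT1-N2 was at 9.01 in the 6 h vehicle pool, 9.36 in animal 1 and 7.47 in animal 2, and at 7.07, 7.43 and 8.42 at 24 h. RT1-T24-3 was at 8.60, 8.55 and 7.26 at 6 h and at 6.10, 7.14 and 7.49 at 24 h. RT1-T24-4 was at 9.65, 9.82 and 8.47 at 6 h and at 8.14, 8.74 and 9.34 at 24 h. In all 3 genes the 6 h vehicle pool, animal 1 of 6 h and animal 2 of 24 h held the highest values, so each treated pair was divided. The probe set of RT1-T24-4 is an x_at, so the 3 readings may not be separate.

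RT1-CE16, also tested on an x_at probe set, had the reverse order. It was at 5.15 in the 6 h vehicle pool, 6.32 in animal 1 and 8.31 in animal 2, and at 8.39, 8.50 and 5.91 at 24 h. The 3 arrays that were highest for RT1-N2 and the RT1-T24 genes were the 3 lowest here. RT1-CE16 was the 1 member at least 2-fold above the vehicle pool in both animals at 6 h, against 0.231% of all probe sets, with a difference of 2.17 ± 1.50, but animal 2 of 6 h was at the level of the 24 h vehicle pool. At 24 h its difference was -1.18 ± 1.50, and the 2 animals were 2.60 apart. For RT1-N2, RT1-T24-3 and RT1-T24-4 the differences were -0.59 ± 0.98, -0.70 ± 0.62 and -0.50 ± 0.68 at 6 h and 0.86 ± 0.98, 1.21 ± 0.62 and 0.90 ± 0.68 at 24 h (SE, n = 2 treated animals). Among the members in RefSeq's order along chromosome 20 (GRCr8), RT1-N2, RT1-N3, RT1-S3, RT1-T24-4 and RT1-T24-3 follow each other and RT1-CE16 comes next. RT1-N3 and RT1-S3, which lie between them, did not have this order of arrays. Of the 3 arrays, 2 were those of run 1 and 1 was in run 2, and the part of the run, or of alleles the animals may carry, was not tested.

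**Figure D5:**
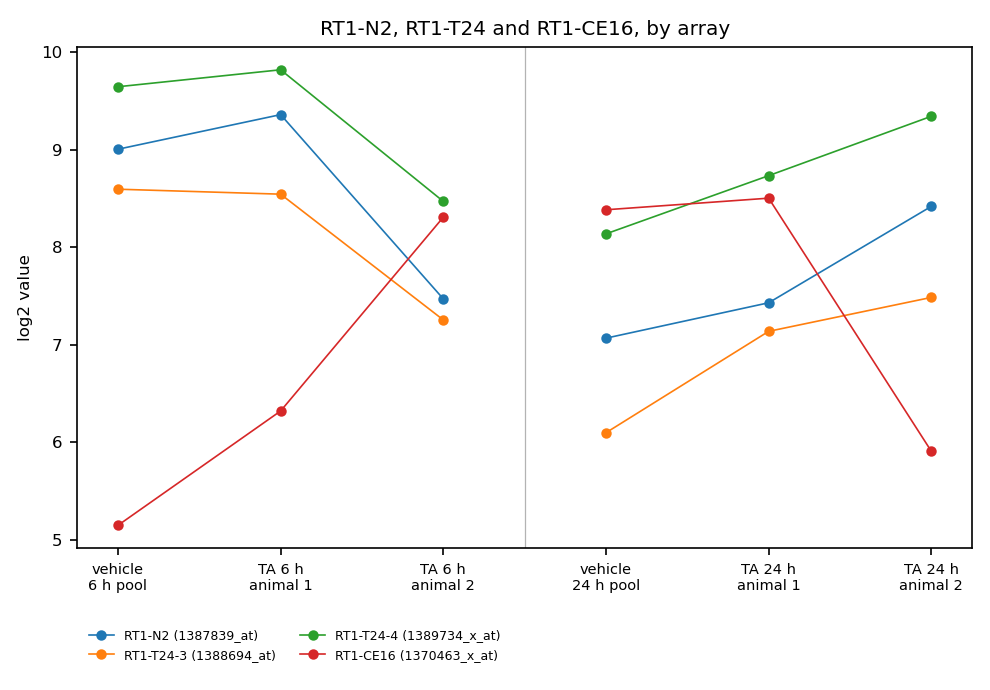
Log2 values of RT1-N2, RT1-T24-3, RT1-T24-4 and RT1-CE16 (y axis) on the 6 arrays (x axis), 1 point per array, with lines joining the arrays of 1 time. The 6 h vehicle pool, animal 1 of 6 h and animal 2 of 24 h are the highest arrays for the first 3 genes and the lowest for RT1-CE16, at 5.15, 6.32 and 5.91.

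The class I genes RT1-M3-1 and, on some of its probe sets, RT1-CE5 were high in animal 1 of 6 h alone. RT1-CE5 was at 4.18, 5.82 and 3.46 at 6 h and at 3.19, 3.19 and 3.33 at 24 h on 1371209_at. On 1388255_x_at it was at 3.84, 5.58 and 4.0 at 6 h and at 3.43, 3.97 and 3.64 at 24 h. The other 2 tested probe sets differed. That named 1371210_s_at ranged from 2.87 to 3.62 and was highest in animal 1 of 6 h. The brightest on average, 1370972_x_at, ranged from 4.53 to 4.73 and was highest in animal 2 of 6 h, with animal 1 at 4.57. RT1-M3-1, whose mouse counterpart presents formylated peptides, was at 4.17, 5.29 and 4.19 at 6 h and at 4.03, 4.17 and 3.69 at 24 h. RT1-N3 ranged from 3.41 to 3.91 and RT1-A3 from 3.35 to 3.54, both close to the floor.

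For RT1-S3 the arrays lay apart by time and close together by treatment. It is a class Ib gene, of the kind that varies little and displays restricted sets of peptides. On its brightest probe set, 1388164_at, it was at 12.05, 11.99 and 11.94 at 6 h and at 11.41, 11.25 and 11.00 at 24 h. On all 4 probe sets every array of 6 h was above every array of 24 h, which held for 11 of the 41 members and for 14.1% of all probe sets, while the reverse held for 0 of the 41 and for 10.9%. The differences of 24 h from 6 h, a contrast added after the values were seen, were -0.74 ± 0.10, -0.59 ± 0.09, -0.68 ± 0.11 and -0.73 ± 0.11. These SE come from the TA pairs alone and not from the spread of 3 arrays a time, as each vehicle pool is a single array. Their adjusted p in limma lay between 0.15 and 0.17, and the contrast called 0 of 41 members (background 0.00537%). Animal 2 of 6 h, in the same run as the 24 h arrays, was at 11.94, above those 3. The TA differences of RT1-S3 were between -0.29 and 0.06 at both times. The remaining 7 probe sets with this separation of times were Ctss, Tap2, Tapbp, RT1-CE5, RT1-M3-1, RT1-N3 and the probe set of RT1-A3 and RT1-A2.

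Of the peptide transporter, Tap2 was high in animal 1 of 6 h, at 6.16 against 4.68 in the vehicle pool and 4.69 in animal 2, with 4.35, 4.35 and 4.41 at 24 h. In rats Tap2 alleles are known to set which peptides reach RT1-A. Tap1, its partner, did not share that peak, at 6.88, 6.99 and 6.80 at 6 h, and was at 6.92, 7.10 and 6.00 at 24 h. Animal 2 of 24 h was its low array. Tapbp, tapasin, which holds class I molecules to the transporter, was at 7.42, 7.94 and 7.51 at 6 h and at 6.75, 7.17 and 7.04 at 24 h.

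The 3 inducible subunits of the immunoproteasome, which cut proteins into peptides fit for class I, were each lowest in animal 2 of 24 h. Psmb8 was at 11.30, 11.60 and 11.21 at 6 h and at 11.63, 11.62 and 10.83 at 24 h. Psmb9 was at 10.74, 11.21 and 10.87 at 6 h and at 10.55, 10.98 and 10.40 at 24 h. Psmb10 was at 9.89, 10.37 and 10.06 at 6 h and at 10.18, 10.09 and 9.70 at 24 h. Animal 2 of 24 h was the lowest array for these 3 and Tap1, 4 of the 7 processing and loading probe sets, and for 12 of the 41 members, against 20.6% of all probe sets. The differences of TA from vehicle at 24 h were -0.41 ± 0.41 for Psmb8, 0.14 ± 0.32 for Psmb9, -0.28 ± 0.24 for Psmb10 and -0.37 ± 0.52 for Tap1 (SE, n = 2 treated animals).

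Nlrc5, the transactivator of class I genes, was measured near the floor, at 3.39, 3.61 and 3.41 at 6 h and at 4.02, 4.25 and 3.59 at 24 h. Animal 2 was thus its lowest array of 24 h too. Of 6 measured targets of interferon gamma that are no members, 4 were lower in animal 2 than in animal 1 of 24 h, a share near the 59.1% of all probe sets, with a median difference between the animals of 0.66. Cxcl9, a T cell chemokine, was at 7.78 and 6.50 in these animals and 7.02 in their pool, and Gbp2, a guanylate binding protein, at 7.80 and 6.87 with 7.01 in the pool. Cxcl11, another such chemokine, was at 10.99 and 10.59 with 10.69 in the pool, and Irgm, an immunity-related GTPase, at 9.33 and 8.29 with 8.87. The other two went the other way. Cxcl10, the remaining chemokine of the list, was at 3.45 in animal 1 and 4.58 in animal 2, and Ubd, a ubiquitin-like protein, at 9.52 and 9.92. Ubd was at 5.96 in animal 1 of 6 h against 9.77 in the vehicle pool and 8.95 in animal 2. The part of these values in the members' values was not tested.

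The genes that act with the members had no call at either time. Beside the counts that follow, 21.0% of all probe sets were above and 36.3% below the vehicle pool in both animals at 6 h, and 24.6% and 36.8% at 24 h. Of 14 measured regulators of MHC genes, 5 were above and 5 below the vehicle pool in both animals at 6 h, and the same counts held at 24 h, with medians of 0.06 and 0.01. Rfx5, a subunit of the X box binding complex, was at 7.85, 7.42 and 7.62 at 6 h and at 8.26, 7.81 and 7.73 at 24 h, differences of -0.33 ± 0.13 and -0.49 ± 0.13 from its pool (SE, n = 2 treated animals). Limma's adjusted p was 0.90 at both times. Nfya, a subunit of the Y box factor, was above its pool at 24 h by 0.46 ± 0.13, and Irf2, a factor of the interferon response, had -0.44 ± 0.17 at 6 h.

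Of 8 measured genes of peptide loading and trimming, 4 were above and 3 below the pool in both animals at 6 h, and 4 and 1 at 24 h. Psme1, an activator of the proteasome, had 0.16 ± 0.14 at each time, and Calr, calreticulin, -0.18 ± 0.15 at 6 h. Psmb7, the constitutive subunit that Psmb10 replaces, had 0.27 ± 0.11 at 24 h, and Erap1, which trims peptides in the endoplasmic reticulum, -0.31 ± 0.16. Of 6 genes of class II processing, 1 was above and 0 below at 6 h, and 2 and 3 at 24 h, with the inhibitor Cst3 at 0.22 ± 0.25 and cathepsin D, Ctsd, at 0.11 ± 0.21 at 6 h. At 24 h Ctsb, cathepsin B, had 0.38 ± 0.15 and Lgmn, legumain, -0.32 ± 0.14. Of the targets of interferon gamma, 1 was above and 2 below at 6 h, and 1 and 0 at 24 h. The costimulator Cd86, the 1 of 3 measured, was at 4.10, 4.54 and 4.07 at 6 h and at 3.89, 4.09 and 4.08 at 24 h, again highest in animal 1 of 6 h.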

How the data were processed

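Each array gave 1 log2 value per probe set. Per the submitters' processing notes, the deposited log2 values came from R 2.0.1 with affy 1.5.8, and the notes name RMA as well as GCRMA without a role for either, so which was used is unknown. The array settings deposited by the authors, of no measured unit (other), were read for hybridisation times alone.

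After 57 control probe sets were left out, the 18625 with a mean above the 40th percentile entered limma (version 3.58.1, R 4.3.3, lmFit and eBayes, 1 mean per group). P-values were two-sided and Benjamini-Hochberg adjusted over all 18625. The fit was tested on simulated data with no run effect and the same spread for pools and single animals, so neither point was covered. Of 36 gene identifiers, 35 were in the RefSeq table, with 0 symbols changed, and 30 had a promoter.

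The members and lists were chosen with earlier results of these data known. By rule, values on all arrays are given for the genes without RT1 symbols and, in class I and class II, the 3 largest differences from vehicle and between animals at each time, and from each pathway list the 2 genes with the smallest p. Other RT1 genes, Irgm and markers were named after their values were seen. The number of arrays limits the precision, and each treated animal gave 1 array. Alternatives covered the filter, scaling, control pool, prior, run and replicate blocks, probe set choice and leaving out animals.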

Additional observations from a re-analysis of the deposited data

How the results depend on the processing

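Limma called 0 member probe sets at 6 h, at 24 h and for the difference of the times under each alternative run. The vehicle pools have no replicate, and the 2 animals of a time share 1 pool. Probe sets called over the whole array were 0 at 6 h, and 1 with both pools as 1 control group or with the pool of the other time. At 24 h there was 1, and 0 with the 60th percentile filter, the run as a block, the replicate block or the pool of the other time, and 0 to 2 when 1 animal was left out. For the difference of the times there was 1, and 0 with the 60th percentile filter, both pools as 1 control group, the run as a block, the replicate block or any animal left out. The replicate numbers mark different animals, so they pair no animals across the times. The differences of animal 1 from animal 2 at 6 h and at 24 h correlated at -0.079 across probe sets. That value cannot show whether arrays of the same number shared a step of processing.

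Medians moved with the pool, the filter, the blocks and the animal left out. At 6 h, leaving out 1 animal gave class I -0.10 to 0.14, class II -0.018 to 0.97 and processing and loading 0.014 to 0.47. The run as a block gave the upper of each, and the replicate block 0.083, 0.78 and 0.44. With both pools as 1 control group, the class I median was 0.32 at 6 h and 0.022 at 24 h, that of class II 0.20 at 24 h and that of processing and loading -0.14 at 24 h. With the pool of the other time, these 4 were 0.62, -0.23, 0.15 and -0.30. At 24 h the class I median was 0.50 with the 60th percentile filter and 0.435 with the replicate block. That of class II was 0.47 and 0.68 with these, 0.062 with no filter, 0.235 with quantile normalization, 0.25 with arrays centred and 0.55 with the highest probe set of each gene. With 1 animal left out, the medians of 24 h lay between 0.061 and 0.14 for class I, 0.24 and 0.28 for class II, and -0.15 and 0.028 for processing and loading. The causes were not tested.

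The sign of single genes turned mainly with the pool, as no difference was called. The RT1-Bb values that follow are those of 1371065_at, as the other probe set, 1371033_at, stayed negative with each pool. With the pool of 24 h, the values at 6 h were -0.23 for Psmb8, -1.07 for RT1-CE16, 1.31 for RT1-Bb, 1.35 for RT1-N2, -0.027 for Tap1, 1.80 for RT1-T24-3, 1.01 for RT1-T24-4 and -0.51 for Nlrc5. With the pool of 6 h, the values at 24 h were -0.36 for Cd74, -0.30 for Tap2, -0.31 for Tapbp, -0.053 for Psmb9, 2.06 for RT1-CE16, -0.17 for RT1-Bb and 0.0088 for Psmb10. They were 0.031 for Ciita, -0.30 for Ctss, -1.08 for RT1-N2, -0.92 and -0.034 for RT1-CE5, -1.28 for RT1-T24-3, -0.61 for RT1-T24-4 and 0.53 for Nlrc5. With both pools as 1 control group, those at 6 h were -0.065 for Psmb8, 0.57 for RT1-Bb, 0.38 for RT1-N2, -0.0068 for Tap1, 0.55 for RT1-T24-3, 0.25 for RT1-T24-4 and -0.20 for Nlrc5. At 24 h they were -0.14 for Tap2, 0.44 for RT1-CE16, -0.42 for RT1-CE5 (1371209_at) and 0.014 for Ciita. Also at 24 h, they were -0.13 for Ctss, -0.11 for RT1-N2, -0.035 for RT1-T24-3 and 0.21 for Nlrc5.

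Rescaling turned B2m at 6 h to 0.037 with quantile normalization, and Ciita at 24 h to 0.0059 with quantile normalization and 0.0069 with arrays centred. The replicate block gave 0.067 for B2m at 6 h, and 0.13 for Ciita and 0.11 for Nlrc5 at 24 h. The run as a block, which equals leaving out animal 2 of 6 h, gave 0.054 for B2m, 0.35 for RT1-N2 and 0.17 for RT1-T24-4 at 6 h. Leaving out 1 animal gave at 6 h from -0.063 to 0.054 for B2m, -0.39 to 1.16 for Cd74 and -0.10 to 0.29 for Psmb8. It gave -0.0041 to 2.78 for RT1-Ba (1377334_at), -0.72 to 1.64 for RT1-CE5 (1371209_at) and -0.24 to 1.36 for RT1-Da. It also gave -0.0093 to 1.91 for RT1-Db1, -1.54 to 0.35 for RT1-N2, -1.18 to 0.17 for RT1-T24-4 and -0.082 to 0.11 for Tap1. At 24 h it gave -0.0077 to 0.0026 for Ciita, -0.43 to 0.22 for Nlrc5, -0.15 to 0.43 for Psmb9 and -0.15 to 0.20 for RT1-Ba on 1370822_at. The brighter RT1-Ba probe set, 1377334_at, kept its sign at 24 h, at 0.93 to 1.22. The ranges at 24 h were -2.48 to 0.12 for RT1-CE16, -0.92 to 0.18 for Tap1 and -0.0027 to 0.058 for Tap2.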
